A study of Homo sapiens with 32 samples.

Results

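HepG2 cells kept in medium without particles were compared between 12 h and 24 h, and 5 of the 32 samples of the series carry this comparison. Members were chosen by label: 3 samples at 12 h (A, B and C) and 2 at 24 h (A and B), all given no treatment, at a concentration of 0. The series exposed the same line to silver nanoparticles at 1.2 ug/mL with a citrate, branched polyethylenimine (bPEI) or polyethylene glycol (PEG) coating, and collected cells at 6, 12 and 24 h. The 17 exposed samples at 12 and 24 h are used here to compare the same interval, and all 32 samples enter the model that sets the spread. HepG2 is an established human line from a liver tumor, so the cells divide while still making many liver proteins, and 1 line stands for 1 genetic background. Nothing in the labels says that the lettered samples came from separate cultures, and p-values therefore measure the spread between these samples, which may be technical.

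Dividing cells raise DNA replication genes before S phase and mitosis genes before division, and core histone genes are made together with new DNA. Hepatocytes also secrete plasma proteins such as fibrinogen and haptoglobin, whose production rises in the acute phase response. Metallothioneins are small proteins that bind zinc, copper and other metals, and the factor MTF1 turns them on through metal response elements in their promoters.

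Promoters of 3 genes are shown because mitosis genes and metallothionein genes are known to share motifs, each given 5′ to 3′ as the 250 bases before the start of the gene in RefSeq (GRCh38.p14). For ANLN and KIF11, mitosis genes that fell, capitals mark the cell cycle homology element (TTTGAA or TTCGAA) and the CCAAT box. ANLN held 2 matches of the element, side by side, and 0 CCAAT boxes, and KIF11 held 1 of each. For MT2A, a metallothionein gene that rose, capitals mark the core of the metal response element (TGCACNC or TGCGCNC). Both strands were searched, and the searched motifs may overlap each other.
ANLN (chr7:36389612-36389861, plus strand): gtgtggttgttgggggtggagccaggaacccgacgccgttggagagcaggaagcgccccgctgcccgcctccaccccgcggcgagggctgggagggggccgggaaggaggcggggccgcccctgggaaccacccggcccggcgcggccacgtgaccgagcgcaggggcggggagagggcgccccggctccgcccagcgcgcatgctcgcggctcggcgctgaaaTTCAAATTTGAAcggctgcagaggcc
KIF11 (chr10:92592880-92593129, plus strand): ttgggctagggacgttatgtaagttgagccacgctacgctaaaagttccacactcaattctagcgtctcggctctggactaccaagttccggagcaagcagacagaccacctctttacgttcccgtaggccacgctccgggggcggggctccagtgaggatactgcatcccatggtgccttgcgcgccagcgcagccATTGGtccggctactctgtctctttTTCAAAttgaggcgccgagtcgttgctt
MT2A (chr16:56608334-56608583, plus strand): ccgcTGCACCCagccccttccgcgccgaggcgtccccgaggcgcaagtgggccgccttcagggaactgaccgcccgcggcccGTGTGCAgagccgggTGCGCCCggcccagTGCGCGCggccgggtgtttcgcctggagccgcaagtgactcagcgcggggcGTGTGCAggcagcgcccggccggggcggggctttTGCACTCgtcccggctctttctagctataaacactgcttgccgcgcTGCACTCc

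The cell cycle element was present in 17 of the 30 promoters matched from the G2/M and mitosis list of 36 genes in the table (56.67%), and in 14.59% of all 27305 promoters of the same length. It was present in 2 of 33 matched promoters of the G1/S and replication list (6.061%). The CCAAT box was present in 24 of 30 mitosis promoters (80%), in 19 of 33 G1/S promoters (57.58%) and in 33.04% of all promoters. MT2A held 7 metal response cores, MT1X 4, MT1H 8 and MT1B 3, and 1.04% of all promoters held 3 or more. MT1A, MT1E, MT1F, MT1G and MT1M were not matched. These matches describe the letters in the window and show no binding.

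The 12 h samples held 5390073, 5439322 and 3534323 reads, and the 24 h samples A and B held 2015520 and 1420319. Values are normalized reads, in which 1 read was worth 1.60 in 24 h A and 2.17 in 24 h B. Of 9324 genes tested, 6.96% were at 0 in 24 h A and 10.1% in 24 h B, and 189 to 268 genes were at 0 in each 12 h sample. Spearman's rho across genes was 0.949 to 0.960 between 12 h samples and 0.839 between the 24 h samples. It was 0.894 to 0.903 between 24 h A and the 12 h samples and 0.779 to 0.826 for 24 h B. The lower depth at 24 h cannot be told apart from time, and its part in the results was not tested.

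Between 12 and 24 h, 266 of 9324 genes (2.85%) passed an adjusted p of 0.05 in limma, 101 higher (1.08%) and 165 lower (1.77%). The model gave each group its own spread, and the 24 h controls had a relative variance of 3.92 against 0.718 at 12 h. With 24 h A alone 38 genes passed (0.408%), 8 higher (0.0858%) and 30 lower (0.322%). With 24 h B alone 331 passed (3.55%), 93 higher (0.997%) and 238 lower (2.55%). A change was counted as held when it passed with both samples and with each 24 h sample alone in the same direction, which 21 genes did (0.225%), 6 higher (0.0644%) and 15 lower (0.161%). Counts were simulated with the same spread for every gene beyond counting error, set apart for the 24 h controls and the other groups. On these, the full test called unchanged genes lower more often than its threshold allows, while false rises and false held genes were rare. Spread that differs between genes, or between 24 h A and B, was not simulated, so the rate of false held genes here is not known. The 165 falls and the balance of falls to rises are read with the excess of false falls as a limit. The description leads with the 21 held genes, the stricter set. edgeR called 815 higher and 672 lower, and DESeq2 992 higher and 800 lower, so that the larger share was higher with both.

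**Figure D1:**
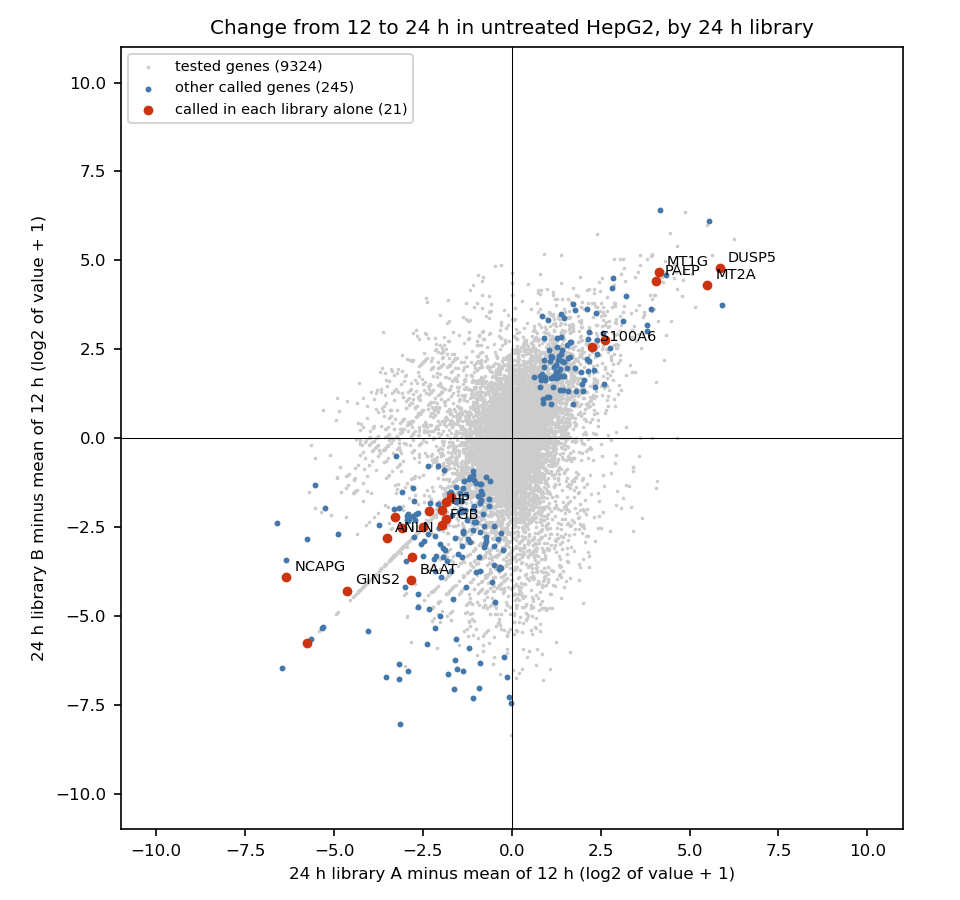
Each point is a gene, with its change from the mean of the 12 h samples in 24 h A (horizontal) and 24 h B (vertical), in log2 of value plus 1. Red points are the 21 held genes, blue points the other called genes and grey points the rest of the 9324 tested. Points in the upper left and lower right quadrants changed in opposite directions in the 2 samples.

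Mitosis genes fell at 24 h. Of 32 tested G2/M and mitosis genes, 14 fell and 0 rose (43.75% called, against 2.85% of all genes). Of the 32, 30 were below all 12 h samples in both 24 h samples, as were 20.6% of all genes. The median change was -2.49 in 24 h A and -2.70 in 24 h B on the log2 scale, against -0.0047 and -0.05 over all tested genes. Of the 14, ANLN and NUSAP1 held in each 24 h sample alone, and with 24 h A alone 3 of the list passed.

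Held falls in NCAPG, SHCBP1 and CENPU, division genes outside that list, are described with them. NCAPG, a subunit of the condensin complex that compacts chromosomes, was at 86.99, 111 and 53.4 at 12 h and 0 and 4.35 at 24 h. The 24 h values stand for 0 and 2 reads, and both lay under all 12 h samples, with a log2 change of -5.13 ± 0.69 (SE) and adjusted p = 9.7e-06. ANLN, the anillin scaffold of the cleavage furrow, was at 634, 814 and 537 at 12 h and 56.2 and 91.3 at 24 h. ANLN was 8.97-fold lower at 24 h, a log2 change of -3.17 ± 0.48 (SE) with adjusted p = 6.9e-05, and the groups did not overlap.

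NUSAP1, which binds spindle microtubules, was at 572, 486 and 451 at 12 h and 88.2 and 87 at 24 h. It was 5.74-fold lower, and the 24 h samples lay close together. SHCBP1, which takes part in cytokinesis, was at 521, 636 and 603 at 12 h and 59.4 and 124 at 24 h, a 6.401-fold fall. CENPU, a centromere protein, was at 626, 893 and 612 at 12 h and 99.5 and 67.4 at 24 h, 8.51-fold lower. All 3 held in each 24 h sample alone, with adjusted p of 3.0e-04, 1.5e-04 and 6.5e-06.

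Other mitosis genes passed with both samples but not with each. KIF11, the motor that separates spindle poles, was at 137, 167 and 121 at 12 h and 24.1 and 13.05 at 24 h (log2 change -2.91 ± 0.52 (SE)). CCNB1, cyclin B1, was at 93.4, 97.1 and 86.6 at 12 h and 11.2 and 0 at 24 h, with no read in 24 h B. NEK2, a centrosome kinase, was at 201, 250.3 and 242 at 12 h and 59.4 and 26.1 at 24 h. HMMR, a spindle assembly protein, was at 259, 376 and 378 at 12 h and 43.3 and 65.2 at 24 h. In all 4 genes both 24 h samples were below the whole 12 h range, as in 20.6% of all genes.

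Replication and repair genes fell in smaller numbers. In the G1/S and replication list, 8 of 33 tested genes fell (24.2%, against 1.77% of all genes), 0 rose and 1 held, with medians of -1.92 in 24 h A and -2.00 in 24 h B. GINS2, a subunit of the replicative helicase, held and was at 96.8, 98.2 and 118 at 12 h and 3.21 and 4.35 at 24 h. The 24 h values stand for 2 reads each, and the log2 change was -4.47 ± 0.58 (SE) with adjusted p = 6.5e-06. RRM2, the small subunit of ribonucleotide reductase, was at 353, 327 and 348 at 12 h and 43.3 and 73.9 at 24 h, and passed with 24 h A alone but not with 24 h B alone. CDK4, the G1 kinase, was at 6102, 6570.4 and 5997 at 12 h and 2307 and 1557 at 24 h, and MCM4 of the MCM helicase at 104, 90.4 and 99.8 at 12 h and 27.3 and 0 at 24 h. Both genes lay under the 12 h range in both 24 h samples, as did 20.6% of all genes.

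The repair list had 3 of 22 tested genes lower (13.6%, against 1.77% of all genes) and 0 higher. Its median was -0.82 in 24 h A and -2.51 in 24 h B, so the samples differed in size. Of these, EXO1, an exonuclease, was at 31.9, 71.8 and 64.8 at 12 h and 0 and 6.52 at 24 h. EXO1 did not hold in each 24 h sample alone.

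Histone genes followed the same direction. Of 56 tested genes of the HIST clusters, a family chosen after its values were seen, 21 fell, 0 rose and 3 held, where 1.77% of all genes fell. Of the 56, 50 were below the 12 h mean in both 24 h samples, as were 31.7% of all genes. HIST1H4I, a histone H4 gene, was at 462, 481 and 498 at 12 h and 94.7 and 115 at 24 h. HIST1H3F, a histone H3 gene, was at 116, 117 and 163 at 12 h and 14.4 and 21.7 at 24 h. HIST2H2AA4, a histone H2A gene, was at 5037, 4531 and 4284 at 12 h and 1268 and 1329 at 24 h, with log2 changes of -2.19, -2.81 and -1.83 for these held genes. HIST2H2AA4 has a near-identical copy, HIST2H2AA3, at 2050.0, 2095 and 1999 at 12 h and 797 and 331 at 24 h, and probe reads could be split between them. The list of 17 tested histone genes overlaps the HIST clusters, and its falls include HIST2H2AA3 and HIST1H3D, which belong to both. In that list 4 fell and 1 rose, and none held in each 24 h sample alone. The rise was H1F0, a linker histone of resting cells, at 259.8, 127 and 267 at 12 h and 385 and 1449 at 24 h.

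**Figure D2:**
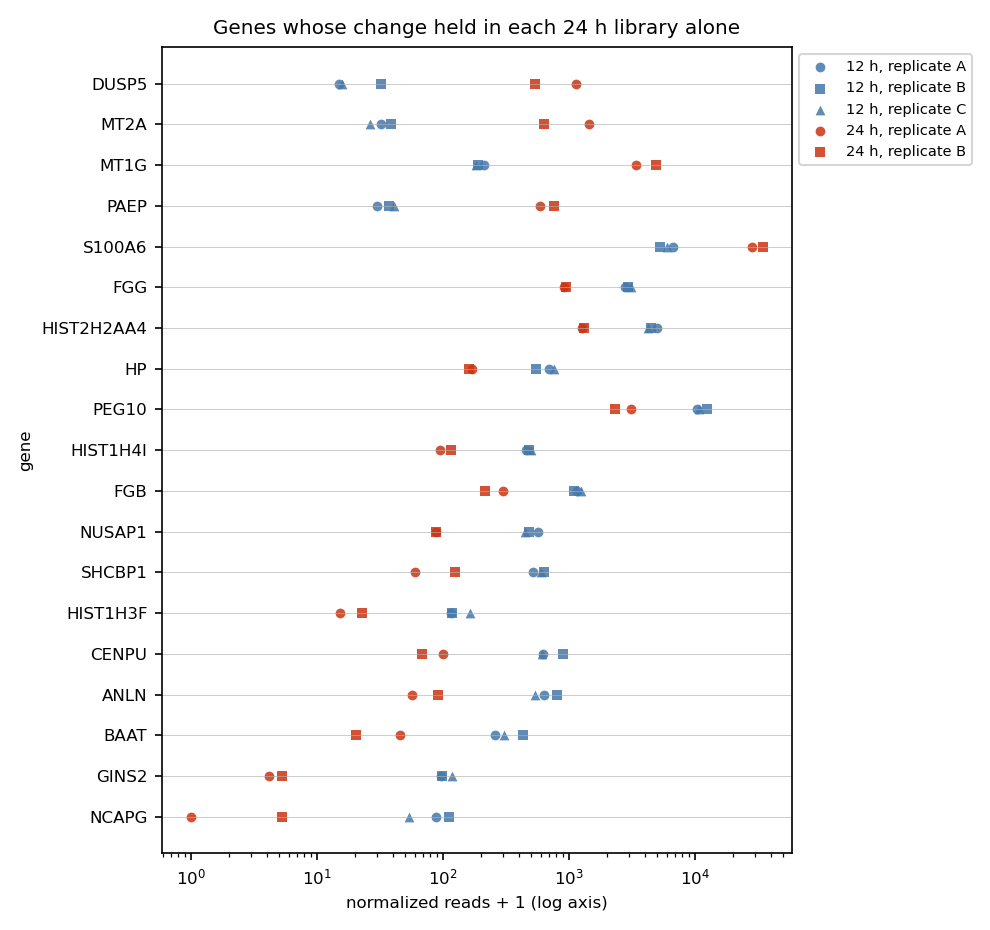
Normalized reads plus 1 on a log axis for 19 of the 21 genes that held in each 24 h sample alone, in the 3 samples at 12 h (blue) and the 2 at 24 h (red). In every gene shown the 24 h samples lie on 1 side of all 12 h samples, as in 39.4% of all tested genes.

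Acute phase genes that fell numbered 3, and all 3 held in each 24 h sample alone. FGB, the beta chain of fibrinogen, was at 1162, 1103 and 1263 at 12 h and 298 and 215 at 24 h. FGG, the gamma chain, was at 2799.9, 2976 and 3150.4 at 12 h and 911 and 946 at 24 h. FGB was 4.58-fold lower (log2 change -2.21 ± 0.30 (SE), adjusted p = 1.1e-05) and FGG 3.204-fold lower (-1.68 ± 0.27 (SE), adjusted p = 1.5e-04). HP, haptoglobin, which binds free hemoglobin, was at 694, 555 and 758 at 12 h and 170.1 and 161 at 24 h, 4.04-fold lower with adjusted p = 9.5e-05. In all 3 both 24 h samples were below the whole 12 h range, as in 20.6% of all genes.

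The third fibrinogen chain, FGA, was at 524, 699.9 and 514 at 12 h and 164 and 63.1 at 24 h, and its change of -2.48 ± 0.71 (SE) did not pass (adjusted p = 0.057). Of 17 tested acute phase genes, 3 fell (17.6%, against 1.77% of all genes) and 0 rose in limma, with a median of -0.62 in 24 h A and -0.99 in 24 h B. edgeR and DESeq2 each called 9 of the 17 lower and 2 higher, so the number of members called depends on the fit. Over all 9324 tested genes edgeR called 672 lower and 815 higher, and DESeq2 800 lower and 992 higher. ORM1 and ORM2, the orosomucoids, had changes of -1.30 and -1.22 with adjusted p of 0.077 and 0.072.

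Other liver functions moved in single genes. BAAT, which joins bile acids to glycine or taurine, held and was at 259, 434 and 308 at 12 h and 44.9 and 19.6 at 24 h, 10.4-fold lower. PEG10, an imprinted gene derived from a retrotransposon, held and was at 10402, 12634 and 10802 at 12 h and 3111 and 2325 at 24 h, 4.15-fold lower. G6PC, the last enzyme of glucose release, was at 87.6, 73.5 and 80.5 at 12 h and 0 and 6.52 at 24 h, where 24 h B had 3 reads and 24 h A none. GSTA1, a glutathione transferase, was at 41.8, 56.1 and 24.5 at 12 h and 0 and 0 at 24 h. Against the 24 h limit of 3 reads over both samples it was at least 14.7-fold lower. Neither G6PC nor GSTA1 held in each 24 h sample alone.

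The transporters ABCC2 and ABCC3, which export conjugates, passed as higher with both samples, but neither held in each 24 h sample alone. ABCC2 was at 607, 606 and 655 at 12 h and 1689.5 and 1599 at 24 h (adjusted p = 0.010). ABCC3 was at 29, 34.2 and 15.8 at 12 h and 112 and 324 at 24 h (adjusted p = 0.001). Among 31 secreted hepatocyte genes 3 fell (9.68%, against 1.77% of all genes) and 0 rose in limma, and none held in each 24 h sample alone. edgeR called 2 higher and 5 lower, against 815 higher and 672 lower of all 9324 tested genes. DESeq2 called 2 higher, against 992. APOC3, an apolipoprotein, was at 1659.7, 1472 and 1816 at 12 h and 608 and 389 at 24 h. RBP4, the retinol carrier, was at 1198, 1040.1 and 1104 at 12 h and 592 and 455 at 24 h. APOH, a plasma apolipoprotein, was at 798, 812 and 711 at 12 h and 547 and 137 at 24 h, so its fall was mainly in 24 h B. ALB, albumin, was at 214945, 219817 and 206025 at 12 h and 187249 and 99463 at 24 h and did not pass (adjusted p = 0.12). Its share of all reads was 6.66 to 7.20% at 12 h, 5.79% in 24 h A and 3.22% in 24 h B.

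Sterol synthesis fell in 5 of 22 tested genes (22.7%, against 1.77% of all genes), with 0 higher and none held in each 24 h sample alone. SQLE, squalene epoxidase, was at 214, 205 and 158 at 12 h and 81.8 and 2.17 at 24 h, and the 24 h samples differed widely. ACAT2, SC5D and CYP51A1 had log2 changes of -2.04, -1.77 and -1.62. Medians over the list were -0.55 in 24 h A and -0.86 in 24 h B.

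**Figure D3:**
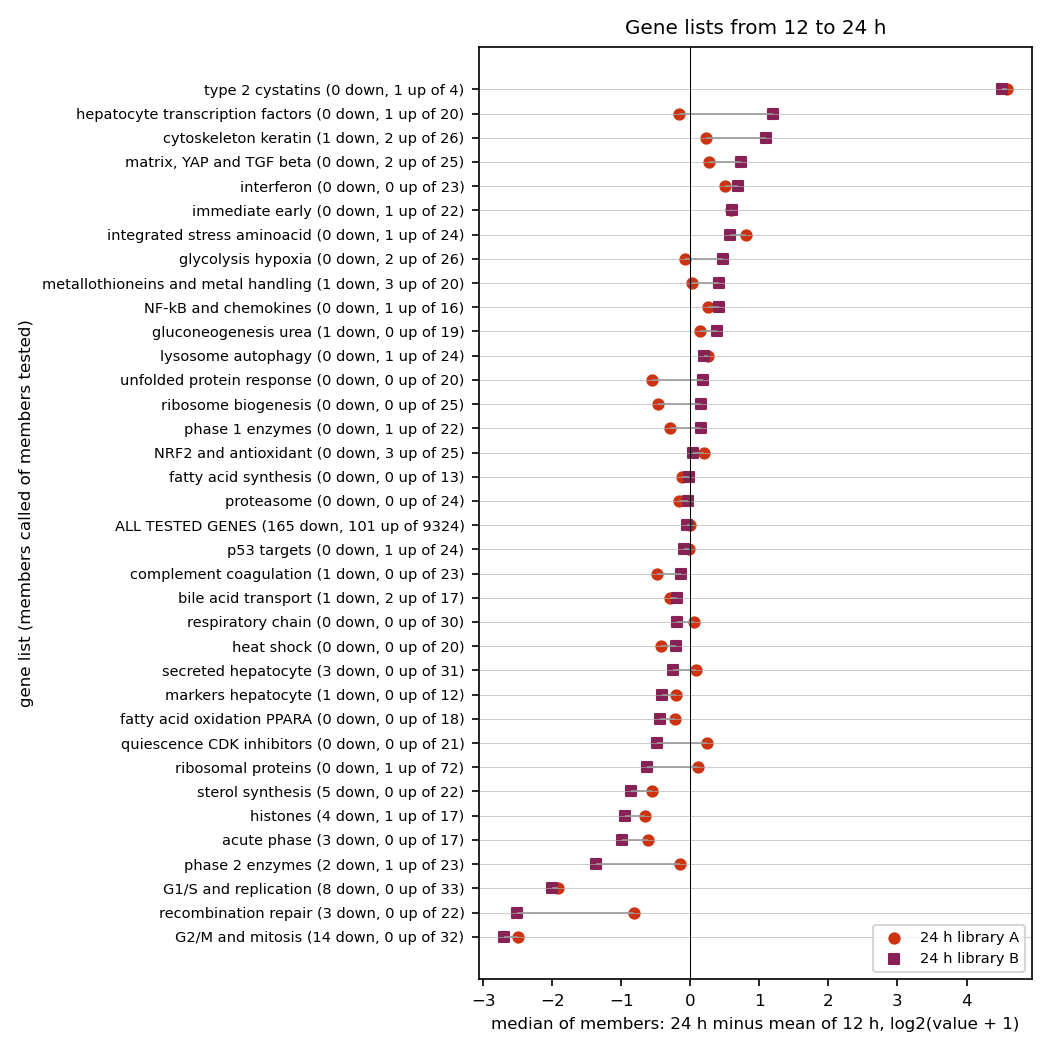
Median log2 change of the tested members of each gene list in 24 h A and 24 h B, with the number of members called lower and higher. The G2/M, G1/S and repair lists lie lowest in 24 h B, and all tested genes lie near 0.

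Metallothionein genes rose between 12 and 24 h. MT1G was at 213, 189.7 and 184 at 12 h and 3438 and 4968 at 24 h, and MT2A at 31.3, 38.2 and 25.4 at 12 h and 1449 and 633 at 24 h. Both held, with log2 changes of 4.40 ± 0.40 (SE) and 4.90 ± 0.67 (SE) and adjusted p of 2.5e-09 and 1.1e-05. MT1E, at 0.5799, 5.61 and 4.38 at 12 h and 228 and 50.02 at 24 h, passed with both samples and not with either alone. All 6 tested MT1 and MT2 genes were above the 12 h mean in both 24 h samples, as were 29.8% of all genes. Of the 6, 3 passed as higher, where 1.08% of all genes did. MT1 genes are near-identical copies, so values of single MT1 genes are uncertain and these genes are not separate cases. MT1M was at 11.02, 8.42 and 17.5 at 12 h and 132 and 104 at 24 h and did not pass (adjusted p = 0.14).

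Of 20 tested genes for metallothioneins and metal handling together, 3 rose and 1 fell (20% called, against 2.85% of all genes). The fall was SLC30A10, a manganese exporter, at 164, 224 and 259.9 at 12 h and 35.3 and 26.1 at 24 h. SLC30A10 did not hold in each 24 h sample alone. Ferritin light chain, FTL, was at 1797, 1711 and 1888 at 12 h and 2912 and 3684 at 24 h and did not pass (adjusted p = 0.083).

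A rise also held in DUSP5, S100A6 and PAEP. DUSP5, a phosphatase that switches off nuclear ERK, was at 13.9, 31.4 and 14.9 at 12 h and 1133 and 542 at 24 h, with a log2 change of 5.31 ± 0.88 (SE) and adjusted p = 2.1e-04. S100A6, a calcium-binding protein, was at 6690.0, 5293 and 6045 at 12 h and 28589 and 34997 at 24 h, 5.29-fold higher. PAEP, glycodelin, was at 29, 36.5 and 40.3 at 12 h and 595 and 761 at 24 h, 19.2-fold higher. In these 3 genes both 24 h samples stood above the 12 h range, as in 18.7% of all genes.

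Of 13 tested S100 genes, a family chosen after its values were seen, 5 rose and 0 fell, where 1.08% of all genes rose. Above the 12 h mean in both samples were 11 of the 13 and 29.8% of all genes, and S100A6 was the 1 that held. Annexins were tallied in the same way. Of 9 tested, 2 rose, 0 fell and 0 held, and 4 were above the 12 h mean in both samples. NOS3, endothelial nitric oxide synthase, was at 2.32, 1.12 and 1.75 at 12 h and 124 and 183 at 24 h. It passed with both samples and with 24 h B alone, and had adjusted p = 0.051 with 24 h A alone. ITGA3, an integrin subunit, was at 0, 0 and 1.75 at 12 h and 24.1 and 117 at 24 h, and CST2, a salivary cystatin with close copies CST1 and CST4, at 233, 78.02 and 116 at 12 h and 2633 and 3110.2 at 24 h. TIMP1, an inhibitor of matrix proteases, was at 792, 778 and 857 at 12 h and 4061 and 2175 at 24 h. CTSB, the lysosomal protease cathepsin B, was at 5068, 4455 and 5619.9 at 12 h and 20262 and 12654 at 24 h. ITGA3, CST2, TIMP1 and CTSB passed with both samples and did not hold in each 24 h sample alone. GDF15, a secreted stress cytokine, was at 3929.6, 3997 and 5172 at 12 h and 22922 and 22306 at 24 h, 5.18-fold higher, but did not pass with 24 h A alone.

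Stress and growth lists had 1 to 3 members called higher in limma, where 1.08% of all genes were. In the immediate early list 1 of 22 tested genes rose (DUSP5), in the matrix, YAP and TGF-beta list 2 of 25 (TIMP1 among them), in the NRF2 list 3 of 25 (ABCC2 and SRXN1 among them), in glycolysis 2 of 26 (ENO2 and NDRG1), and in the p53 list 1 of 24 (GDF15). In the integrated stress list 1 of 24 rose, CEBPB, at 133, 72.97 and 159 at 12 h and 552 and 687 at 24 h. limma called no gene in the unfolded protein (20 tested), heat shock (20), fatty acid synthesis (13), fatty acid oxidation (18), ribosome biogenesis (25), respiratory chain (30), proteasome (24), interferon (23) or quiescence (21) lists. Over these 194 genes, 30 had an unadjusted p under 0.05 (15.5%, against 14.5% of all genes). edgeR called 33 (17%, against 15.9% of all genes) and DESeq2 41 (21.1%, against 19.2%). In the quiescence list alone 7 of 21 had an unadjusted p under 0.05, edgeR called 9 and DESeq2 11. In the NF-kB list 1 of 16 rose (ICAM1), in the complement and coagulation list 1 of 23 fell (F13B), and in the cytoskeleton list 2 of 26 rose, TPM4 among them, and MYL6 fell. The count tests called more in some of these lists: edgeR and DESeq2 each called 10 of 22 immediate early and 7 of 25 matrix genes higher, and 10 and 12 of 26 cytoskeleton genes. Over all 9324 tested genes edgeR called 815 higher and DESeq2 992. ICAM1, an adhesion molecule, was at 64.4, 41.5 and 50.8 at 12 h and 236 and 413 at 24 h. Of 72 ribosomal protein genes 1 passed, RPS4X, at 706, 546 and 787 at 12 h and 1268 and 2686 at 24 h. Among the genes named in these lists, only DUSP5 held in each 24 h sample alone.

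Defining hepatocyte markers were present in every sample, 12 of 12 in the table, with a summed level of 287161 to 300450 at 12 h, 265548 in 24 h A and 206429 in 24 h B. ALB made up most of this sum at 12 h and in 24 h A. Without ALB, the sum in 24 h B was above those at 12 h. Endothelial markers, 4 of 12 in the table, summed to 102 to 123 at 12 h and to 520 and 463 at 24 h, mainly NOS3 and ESAM. Fibroblast and stellate markers, 6 of 12, summed to 365 to 405 at 12 h and to 244 and 611 at 24 h, with COL1A1, COL1A2, COL3A1 and PDGFRA at 0 in both 24 h samples. Leukocyte markers, 8 of 12, summed to 5141 to 5657 at 12 h and to 8642 and 4339 at 24 h, and LYZ made up most of it. Biliary markers, 7 of 10, summed to 7344 to 9017 at 12 h and to 9304 and 11264 at 24 h. In bulk lysates, fewer cells of a type and less RNA per cell cannot be told apart.

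Across all genes the 24 h samples often disagreed. Against the 12 h mean, 2777 genes were higher in both, 2953 lower in both and 3582 moved in opposite directions. The SD of the log2 change over genes was 1.29 in 24 h A and 1.80 in 24 h B. Both 24 h samples lay beyond the whole 12 h range on the same side in 3671 genes (39.4%), 1925 lower (20.6%) and 1746 higher (18.7%). Of the 266 called genes, 208 were at least 2-fold off in the same direction in both samples and beyond the 12 h range (2.23% of tested genes), 85 higher (0.912%) and 123 lower (1.32%).

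Single genes show the gap between the 24 h samples. CMTM6 was at 318, 448 and 237 at 12 h and 316 and 0 at 24 h and PDCD4 at 95.1, 152 and 92.8 at 12 h and 204 and 0 at 24 h, each at 0 in 24 h B only. PIK3C2A was at 181, 253 and 117 at 12 h and 172 and 0 at 24 h and passed with both samples (adjusted p = 0.045) although 24 h A lay inside the 12 h range. DGCR8 was at 59.2, 115 and 129 at 12 h and 0 and 17.4 at 24 h, lower in both. MYH9 was at 49.9, 26.9 and 45.5 at 12 h and 41.7 and 509 at 24 h and MYOM3 at 37.7, 33.7 and 25.4 at 12 h and 9.63 and 167 at 24 h, higher in 24 h B only. At least 50 in 24 h A with 0 in 24 h B was seen in 44 genes, and the reverse in 10.

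Untreated samples at 6 h put the 12 h values in context, as a description with no test. HP was at 2705, 2344 and 2377 at 6 h, FGB at 3209.5, 3990.3 and 3655 and FGG at 9942, 12163 and 11184, so all 3 were higher at 6 h than at 12 h and lowest at 24 h. MT1G was at 1618, 1532 and 1444 at 6 h, above its 12 h values and below its 24 h values. ANLN was at 441, 489 and 565 at 6 h, overlapping its 12 h values. S100A6 was at 2613, 2631 and 2789.9 at 6 h, below 12 h.

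**Figure D4:**
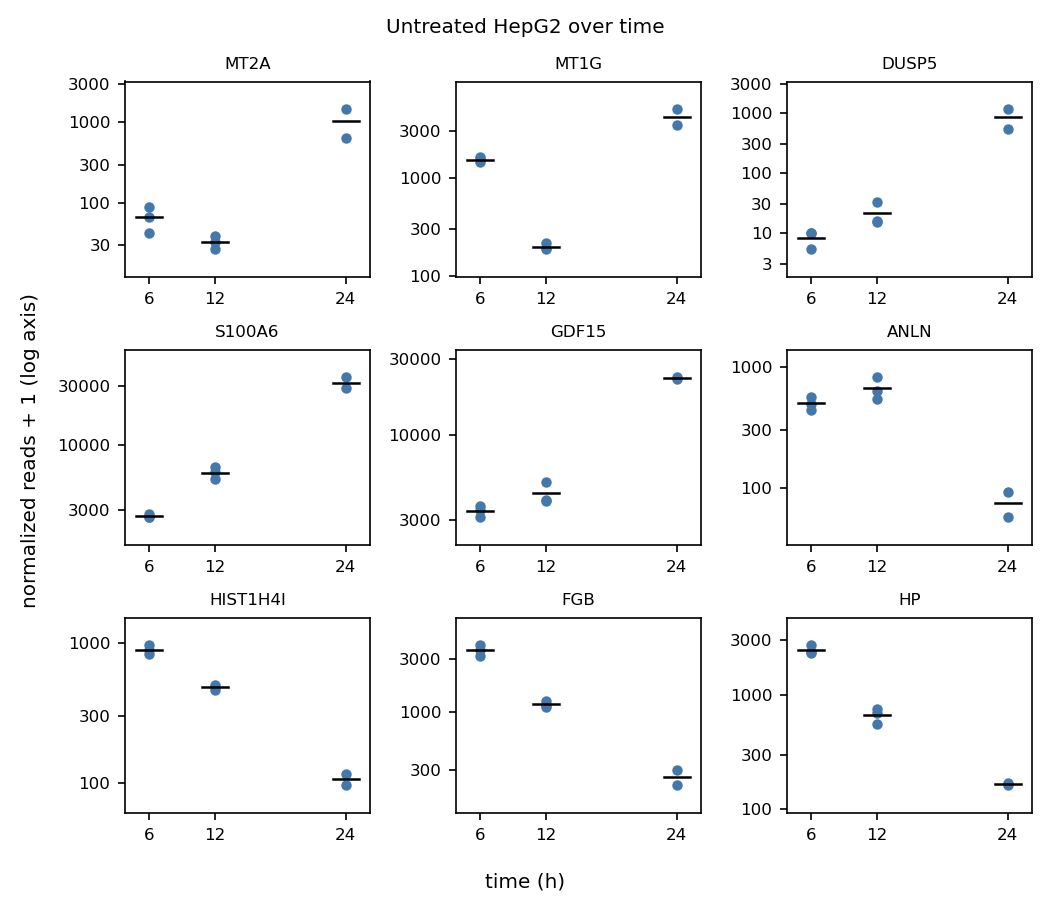
Normalized reads plus 1 (log axis) in untreated cells at 6, 12 and 24 h for 9 genes, with 1 point per sample and a bar at the group mean. HP and FGB step down at each time, and MT1G is lowest at 12 h.

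The same interval in exposed cells gave, from other samples, 1190 calls with bPEI (12.8%), 1534 with PEG (16.5%) and 1231 with citrate (13.2%). Higher calls were 582 (6.24%), 751 (8.05%) and 546 (5.86%), and lower calls 608 (6.52%), 783 (8.40%) and 685 (7.35%), in that order. These exceed the untreated 266 in this fit, but the order turns with the spread: with 1 shared spread the counts were 1708 untreated, 314 with bPEI, 1384 with PEG and 1089 with citrate. edgeR gave 1487, 400, 1411 and 1045, and DESeq2 1792, 695, 1792 and 1352. Of the 266 untreated calls, 182 were called in the same direction with bPEI (68.4% of the 266 and 15.3% of the bPEI calls), 210 with PEG (78.9% and 13.7%) and 175 with citrate (65.8% and 14.2%). Of the 21 held genes, 18 were called in the same direction with all 3 coatings. MT2A changed by 2.74 with bPEI, 3.02 with PEG and 3.10 with citrate, against 4.90 in untreated cells. ANLN changed by -1.45 with bPEI, -2.02 with PEG and -1.70 with citrate, against -3.17. The mitosis list had medians of -1.27, -1.81 and -1.46 with bPEI, PEG and citrate, against -2.52 in untreated cells.

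The untreated change differed from the mean change of the 3 coatings in 10 genes (0.107%), by a test of the difference itself. FGG changed by 0.53 with bPEI, -0.43 with PEG and 0.07 with citrate, against -1.68 in untreated cells, a difference of -1.73 ± 0.28 (SE) with adjusted p = 0.002. HP changed by 0.18 with bPEI, -0.31 with PEG and -0.19 with citrate, against -2.00, a difference of -1.89 ± 0.33 with adjusted p = 0.003. G6PC changed by 0.34 with bPEI, 1.12 with PEG and 1.16 with citrate, against -4.89. None of the 10 differences passed with each 24 h sample alone: 5 passed without 24 h A and 2 without 24 h B.

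**Figure D5:**
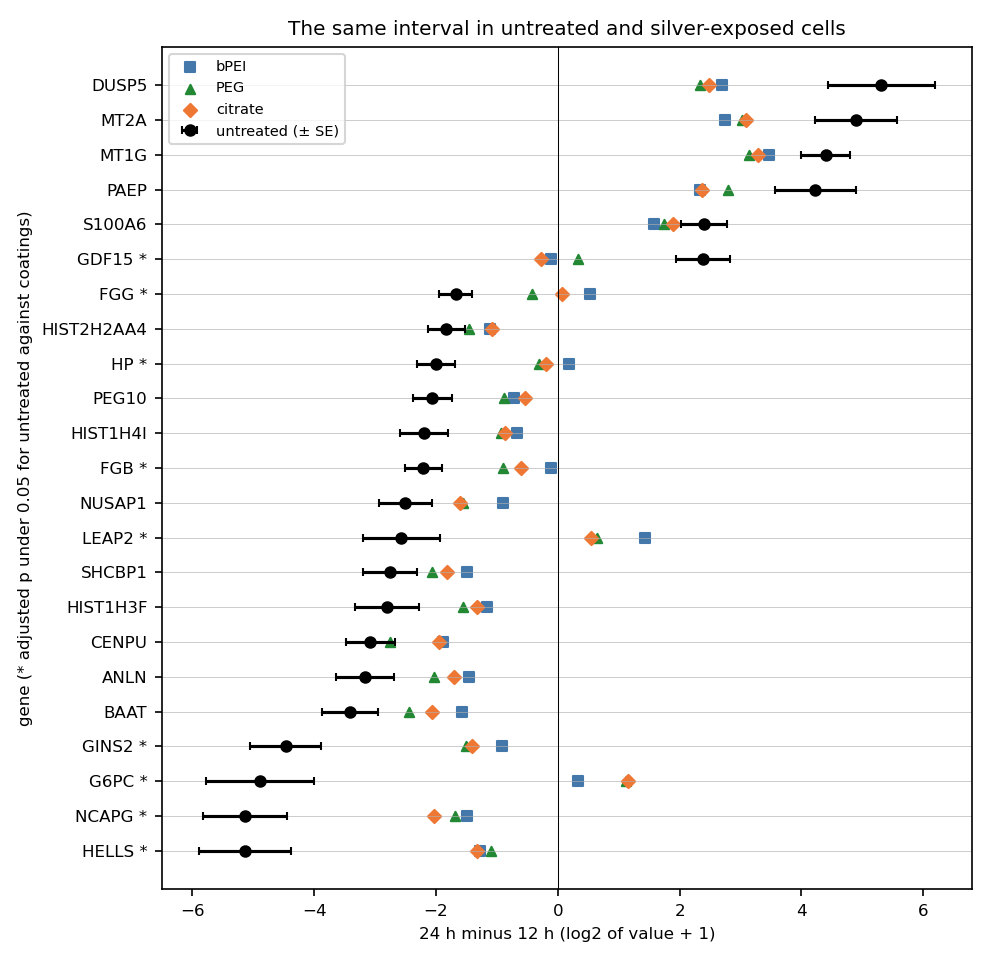
Change from 12 to 24 h in log2 of value plus 1 for held genes and for genes whose untreated change differed from the coatings (asterisk), leaving out genes not reported here. Black points are untreated cells with SE, and colored points the 3 coatings. FGG, HP and FGB lie lower in untreated cells than with each coating.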

How the data were processed

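HepG2 lysates were assayed by TempO-Seq, a targeted assay that ligates probes on RNA and counts them by sequencing, per the labels' protocols. The deposited signal values were normalized by the authors: dividing out a scale factor for its sample turned 100% of them into whole reads, within 0.01 reads, and these factors match median-of-ratios factors. No source used here gives the aligner, counting or build. This table held 13133 genes in 32 samples. Genes with a mean of at least 5 were tested (9324), and 3809 were left out.

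limma (3.58.1, R 4.3.3) was fitted to log2(value + 1) made from the deposited signal, with 12 group means, 1 variance weight per group, an intensity trend and robust moderation, and 20 residual degrees of freedom. Fold changes on this scale understate those of low genes. Benjamini-Hochberg adjustment ran over all tested genes, with a threshold of 0.05. The fit was repeated with each 24 h sample left out, keeping the weights, so the lone sample was assumed to vary as its group did. edgeR (4.0.16) and DESeq2 (1.42.0) on the recovered reads were alternatives. The test was run on counts simulated with the same spread for every gene beyond counting error. It found most large changes, few of the small ones, and too many false falls.

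Genes were named by rule: the 10 largest held rises and falls, filled from called genes 2-fold off in both 24 h samples, up to 6 members of each list by smallest p, the 5 genes most unlike between 24 h samples in each direction, and the 5 most unlike the coatings. The comparison, the 40 lists (1028 genes, 794 tested), the tests and this rule were chosen with earlier results of these data known. PEG10, HIST1H4I and HIST2H2AA4, which held, lie outside the rule and were named in addition. The same goes for LEAP2 and HELLS, which differed from the coatings. The 13 mitochondrially encoded genes listed were not analysed here. Some genes counted among the calls are not reported here by name. Medians and counts describe lists, with no list test. Promoters came from RefSeq (GRCh38.p14).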

Additional observations from a re-analysis of the deposited data

Results flagged for a closer look

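In 10 of 9324 tested genes (0.107%) the change from 12 to 24 h differed between untreated cells and the mean of the 3 coatings in limma. Of the 9324, 437 had an unadjusted p under 0.05. Chance gives an unadjusted p under 0.05 for a share near 0.05 of the tested genes, and the 437 do not exceed that share. edgeR called 74 of the 9324 and DESeq2 203. Differences are on the log2 scale with SE, untreated minus coatings.

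Liver genes were among the lower ones. The difference was -1.73 ± 0.28 for FGG (adjusted p = 0.002), -1.89 ± 0.33 for HP (0.003) and -1.67 ± 0.32 for FGB (0.009). G6PC differed by -5.76 ± 0.92 (adjusted p = 0.002) and LEAP2, a liver peptide that blocks the ghrelin receptor, by -3.44 ± 0.67 (0.010). LEAP2 was at 26.7, 36.5 and 51.6 at 12 h and 3.21 and 8.7 at 24 h, and had been at 323, 293 and 335 at 6 h.

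Replication and division genes were also lower: GINS2 by -3.18 ± 0.61 (adjusted p = 0.009), HELLS, a chromatin remodeler, by -3.90 ± 0.79 (0.017) and NCAPG by -3.39 ± 0.72 (0.029). HELLS was at 109.6, 114 and 91.9 at 12 h and 8.02 and 0 at 24 h, with 5 reads in 24 h A and 0 in 24 h B.

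GDF15 was higher, by 2.40 ± 0.46 (adjusted p = 0.015). GDF15 changed by -0.11 with bPEI, 0.34 with PEG and -0.28 with citrate. Of the 10, GINS2, LEAP2, G6PC, HELLS and NCAPG rest on 2 to 6 reads at 24 h, and the part of counting error was not tested.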

How the results depend on the processing

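All 21 held genes stayed called in each of the 15 alternatives, 2 of which (without 24 h A, without 24 h B) define them. Fewer stayed held: 14 of the 21 with a filter at a mean of 20 and 15 with the replicate block. None of the 69 called genes followed here reversed: of their 1035 values 903 kept their side of the threshold and 132 did not, and of 140 for the 10 differences from the coatings 119 did and 21 did not. The number of calls depended on how the spread was set. With 1 spread shared by all groups there were 1708 calls (754 higher, 954 lower), 436 held, 852 that were 2-fold off in both, 107 differences from the coatings and 314 calls with bPEI. With the spread of only the 5 untreated samples there were 152 calls (67 higher, 85 lower). Holding is not compared for that fit, because with a 24 h sample left out only the 12 h samples set its spread. Higher calls were 154 with a pseudocount of 5 and 154 with quantile normalization, which gave 33 held. Without a filter on low values there were 414 calls, 170 higher, and 38 held.

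edgeR gave 1487 calls (815 higher, 672 lower), 744 that were 2-fold off in both, 74 differences from the coatings and 400 calls with bPEI. DESeq2 gave 1792 (992 higher, 800 lower), 855, 203 and 695. The cause of these shifts was not tested. Leaving out 1 sample gave 38 to 331 calls, 8 to 111 higher, 30 to 238 lower, 4 to 63 differences, and, with a 12 h sample left out, 17 to 22 held and 181 to 219 that were 2-fold off in both. The lowest count, 38, came without 24 h B, and without 24 h A the count was 331. Lower calls in the mitosis list ran from 3 (without 24 h B) to 27, and in the G1/S list from 2 to 18. Held counts were not run with edgeR or DESeq2.

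Deviations from the group mean correlated at -0.041 for 12 h A with 24 h A and -0.159 for 12 h B with 24 h B. Across letters they correlated at 0.041 for 12 h A with 24 h B and 0.159 for 12 h B with 24 h A. With 2 samples at 24 h their deviations mirror each other, so these values cannot show whether the letters pair the times. The replicate block gave 304 calls (123 higher, 181 lower), 17 held and 228 that were 2-fold off in both. Depth limits low genes: a count of 0 allows 3 reads, which is 2.77 normalized reads over both 24 h samples.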
